A study of Mus musculus with 10 samples.

Results

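NADPH oxidases and antioxidant enzymes were followed as 10 genes in whole mouse lung, 4 that produce reactive oxygen (Nox1, Nox4, Cybb and Cyba) and 6 that remove it or limit its damage (Sod1, Sod2, Sod3, Cat, Nqo1 and Hmox1). The genes were chosen by name, and all 10 were found once each among the 54532 genes of the deposited table. Lungs came from wild-type C57BL/6J mice at postnatal day 30 (P30). The increased pulmonary flow (IPF) group had an aortocaval fistula made by needle puncture at P7, a shunt from aorta to vena cava that sends more blood through the lungs (n = 5), and the sham group had the same laparotomy without the puncture (n = 5). Both groups were anesthetized with isoflurane for surgery, and the RNA is that of whole lung, with no cell type isolated. The level of a gene is given in FPKM, fragments scaled to gene length and library depth, as the authors deposited it.

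NADPH oxidases are membrane enzymes that carry electrons from NADPH to molecular oxygen and so make superoxide or hydrogen peroxide on purpose. Superoxide dismutases turn superoxide into hydrogen peroxide, which catalase and the peroxidases then break down, and the transcription factor NRF2 induces many of the protective enzymes. In lung vessels and airways these systems are known for their part in the response to blood flow, oxygen and inhaled particles, while phagocytes use an oxidase of their own to kill microbes.

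Of the 10 genes, 1 was called higher in the IPF lungs. Nox1, a catalytic oxidase subunit best known from colon epithelium and vascular smooth muscle, averaged 0.550 ± 0.183 FPKM in IPF and 0.175 ± 0.0841 FPKM in sham lungs (SD over 5 lungs). Cybb, the catalytic subunit of the phagocyte oxidase, and Hmox1, which breaks down heme, were also higher on average but did not pass the test. The 3 superoxide dismutases, catalase and Nqo1 did not pass it either, and at an unadjusted p under 0.05 limma gave Nox1, Cybb and Hmox1, 3 of the 10, where 19.5% of all genes did so. Outside the 10 genes, the cytosolic partners of Cybb Rac2 and Ncf4 rose, both with all 5 IPF lungs above all 5 sham lungs, while Ncf1 and Rac1 did not pass the test. The test was limma with a Benjamini-Hochberg adjusted p under 0.05 over the 20448 genes whose mean reached 0.1 FPKM, and 5.85% of those genes were called, 3.71% higher and 2.14% lower in the IPF group. Each log2 fold change is IPF against sham after adding 0.1 to the FPKM, so for sparse genes such as Nox1 it is smaller than the ratio of the means.

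Several features of the whole series bear on these values. The reads recovered from the FPKM values numbered 15483046 to 19026843 per sample. Defining lung markers were present in each lung, with Sftpc at 9437 to 16514 FPKM and Ager at 706 to 935 FPKM. Xist was at 26.8 to 43.2 FPKM in the IPF lungs and at 0.0301 to 0.0767 FPKM in the sham lungs. The Y-linked Ddx3y, Eif2s3y, Kdm5d and Uty were at 0 in all 5 IPF lungs and present in all 5 sham lungs. Fistula and sex therefore cannot be told apart for any gene, on the X chromosome or elsewhere. The paper reports that both sexes were used, with allocation balanced by sex where feasible. Nox1 and Cybb lie on the X chromosome, as do Maoa and Maob of the wider lists. Of 16 circadian clock genes, 4 were called higher and 11 lower, with Arntl at 5.84 against 0.366 FPKM and Dbp at 2.26 against 26.4 FPKM in IPF and sham means. Every IPF lung lay above every sham lung for 4 of the 16 and below for 11, so fistula and clock phase cannot be told apart either. Sham replicate 1 stood somewhat apart, its Spearman correlations with the other 9 lungs across genes averaging 0.957, where those of the others averaged between 0.963 and 0.968. The heart muscle gene Myh6 reached 18.7 FPKM in IPF replicate 4 and 15.3 FPKM in sham replicate 3.

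Promoter sequences of 8 of the 10 genes could be read from RefSeq (GRCm38.p6), each from 250 bases before to 50 bases after the start of the gene. Those of Nox1 and Cybb are shown because these had the largest fitted differences among the 10 genes, and that of Sod1 because it alone held the core letters of the antioxidant response element bound by NRF2. The searched letters, on both strands, were TGACNNNGC (antioxidant response element), CACGTG (E-box, read by clock factors) and GAGGAA (core of sites for the myeloid factor PU.1). Capitals mark each match, and no matches overlapped.
Nox1 (chrX:134111805-134112104, minus strand): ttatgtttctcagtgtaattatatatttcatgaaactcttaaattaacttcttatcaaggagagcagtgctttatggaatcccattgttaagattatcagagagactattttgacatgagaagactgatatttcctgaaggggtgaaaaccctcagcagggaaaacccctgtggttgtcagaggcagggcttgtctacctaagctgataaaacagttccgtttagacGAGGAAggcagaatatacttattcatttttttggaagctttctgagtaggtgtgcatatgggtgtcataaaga
Cybb (chrX:9469275-9469574, minus strand): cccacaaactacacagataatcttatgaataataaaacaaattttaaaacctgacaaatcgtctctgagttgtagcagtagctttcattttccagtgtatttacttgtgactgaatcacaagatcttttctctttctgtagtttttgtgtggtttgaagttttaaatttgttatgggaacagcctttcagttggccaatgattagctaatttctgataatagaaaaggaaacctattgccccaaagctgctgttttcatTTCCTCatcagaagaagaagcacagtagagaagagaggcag
Sod1 (chr16:90220512-90220811, plus strand): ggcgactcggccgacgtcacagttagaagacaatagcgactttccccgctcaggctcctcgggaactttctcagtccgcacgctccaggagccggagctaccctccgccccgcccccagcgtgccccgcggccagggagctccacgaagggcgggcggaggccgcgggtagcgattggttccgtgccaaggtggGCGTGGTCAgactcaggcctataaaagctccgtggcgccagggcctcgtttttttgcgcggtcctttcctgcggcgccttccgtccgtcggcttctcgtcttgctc
In the Nox1 promoter the GAGGAA letters began 23 bases before the start. In Cybb the reverse complement of GAGGAA began 9 bases after the start. In Sod1 the response element letters lay on the opposite strand, 56 bases before the start. GAGGAA also occurred in the windows of Cat and Sod2, and CACGTG in none of the 8. Among all 32851 promoter windows, 12.4% held TGACNNNGC, 7.15% CACGTG and 28.3% GAGGAA. For Nox1 and Cybb the RefSeq start lies inside the longer gene span of the deposited table. A match describes the letters of the window only, and no binding was measured.

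Among the sources, Nox1 (ENSMUSG00000031257, chromosome X of GRCm38, 134086421 to 134221956, minus strand) was the least expressed. It was at 0.515, 0.508, 0.656, 0.780 and 0.291 FPKM in IPF replicates 1 to 5 and at 0.183, 0.118, 0.113, 0.145 and 0.317 FPKM in sham replicates 1 to 5. IPF replicates 1 to 4 lay above all sham lungs, and IPF replicate 5 lay below sham replicate 5, so the groups overlapped. Its log2 fold change was 1.23 (standard error, SE, 0.28, 95% interval 0.62 to 1.84, limma adjusted p = 0.0244), which also passed the limit of 1 that the study set, as 0.68% of all genes did upwards and 1.14% in either direction. These values rest on few reads, 17 to 47 in an IPF lung and 6 to 16 in a sham lung, and they allow only a rough size: with a pseudocount of 1 the log2 fold change was 0.39, and by limma voom on the recovered reads it was 1.65. When each lung was left out in turn, the adjusted p from limma ranged from 0.00894 to 0.0687 and was above 0.05 in 7 of 10 fits, namely without IPF replicates 1, 2, 3 or 4 and without sham replicates 2, 3 or 4. With all lungs kept and same-numbered samples fitted as blocks, the limma adjusted p was 0.0879, so the call was lost there as well.

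The annotated span of Nox1 overlaps other genes. It shares 399 bases with Cstf2 on the opposite strand and encloses Xkrx on the same strand and Arl13a, at a mean of 0.0135 FPKM, on the other, and since the counting is not stated to use strand, reads of overlapping exons could have been given to either gene. Cstf2, a cleavage factor of mRNA ends, was at 4.93 FPKM in the IPF and 5.19 FPKM in the sham group (log2 fold change -0.07, limma adjusted p = 0.644). Xkrx was at 0.628 and 0.492 FPKM (log2 fold change 0.29, limma adjusted p = 0.576). The organizer and activator that Nox1 needs, Noxo1 and Noxa1, which fall outside the rule for named genes, had log2 fold changes of 0.07 and 0.02 (limma adjusted p = 0.894 and 0.989), with means between 0.340 and 1.26 FPKM.

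**Figure D1:**
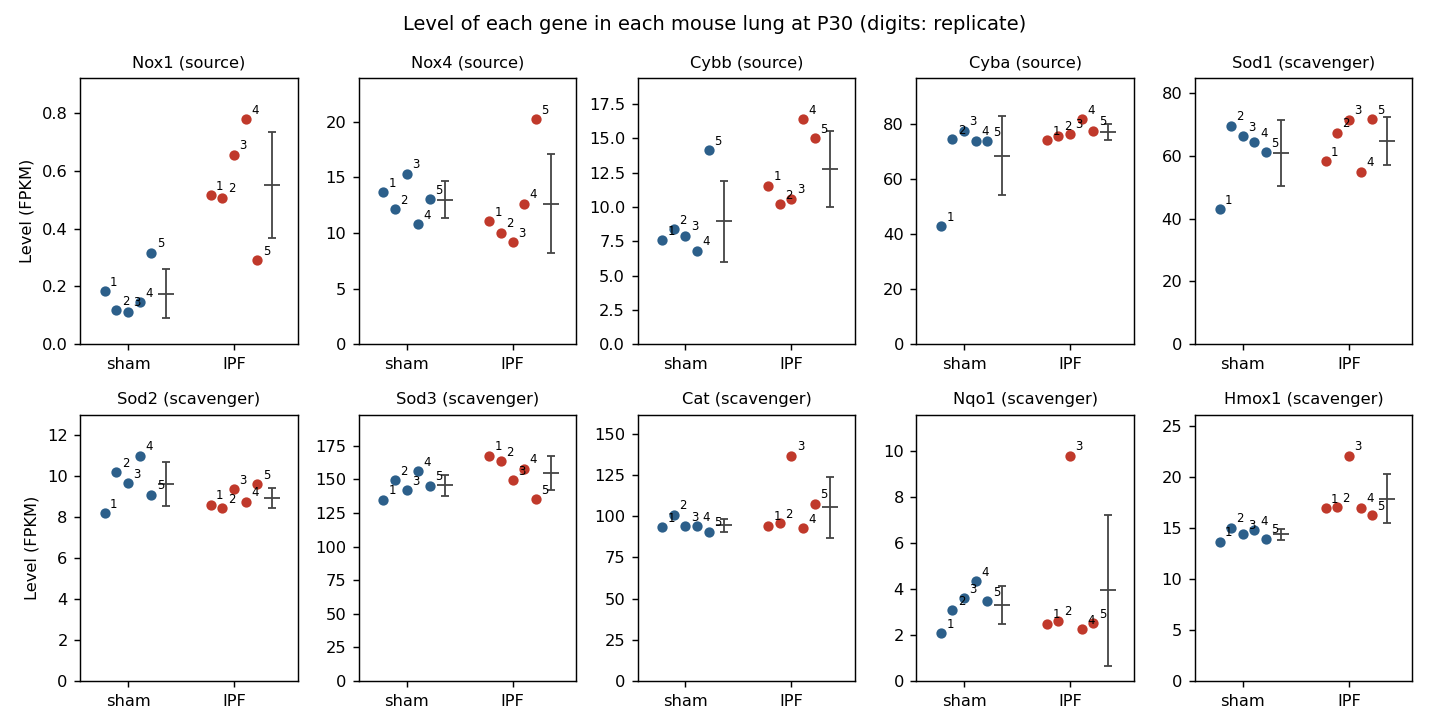
Level in FPKM (vertical axes, each from 0) of the 10 genes in each lung, with sham in blue and IPF in red, digits giving the replicate and bars the mean ± SD of 5 lungs. Nox1 is higher in IPF replicates 1 to 4 than in all sham lungs, Hmox1 in all 5, and IPF replicate 3 stands alone for Nqo1 at 9.81 FPKM.

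Cybb (ENSMUSG00000015340, chromosome X, 9435252 to 9487771) encodes the catalytic subunit of the oxidase of neutrophils, monocytes and macrophages. It was at 11.6, 10.2, 10.6, 16.4 and 15.0 FPKM in IPF replicates 1 to 5 and at 7.59, 8.39, 7.89, 6.81 and 14.1 FPKM in sham replicates 1 to 5. Each IPF lung lay above sham replicates 1 to 4, while sham replicate 5 lay among the IPF lungs. This gave a log2 fold change of 0.53 (SE 0.20, 95% interval 0.10 to 0.96) and a limma adjusted p of 0.158. Sham replicate 5 decided this: without it the log2 fold change was 0.70 and the limma adjusted p 0.0236, whereas each of the other 9 such fits stayed above 0.05, at up to 0.305.

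Cyba (ENSMUSG00000006519, chromosome 8, 122424776 to 122432930), the smaller membrane subunit that stabilizes Cybb, Nox1 and Nox4, was the most abundant source per length. It was at 74.0 to 81.8 FPKM in the IPF lungs. Sham replicates 2 to 5 were at 73.6 to 77.5 FPKM and sham replicate 1 at 42.9 FPKM, the library that stood apart across all genes. The log2 fold change of 0.20 (SE 0.14 and a limma adjusted p of 0.486) was 0.04 without sham replicate 1 (limma adjusted p = 0.709). Cybb had 13.5 to 20.1 FPKM per 100 FPKM of Cyba in the IPF lungs and 9.22 to 19.2 in the sham lungs, so this ratio overlapped between the groups.

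Nox4 (ENSMUSG00000030562, chromosome 7, 87246096 to 87398710) is active without cytosolic subunits, releases mainly hydrogen peroxide, and is known from smooth muscle, fibroblasts and endothelium. It was at 11.1, 10.0, 9.15, 12.6 and 20.3 FPKM in IPF replicates 1 to 5 and at 10.8 to 15.3 FPKM in the sham lungs. IPF replicate 5 was the highest and IPF replicate 3 the lowest of all 10 lungs. Nox4 had a log2 fold change of -0.09 with a 95% interval of -0.50 to 0.32 (limma adjusted p = 0.842), so neither a rise nor a fall within that range can be told at this spread. Of 9 smooth muscle markers 1 was called, Smtn, which was lower.

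The phagocyte oxidase works only when cytosolic proteins join Cybb and Cyba at the membrane. Of 14 other genes of NADPH oxidases and their partners, 9 reached the mean of 0.1 FPKM needed for a test, and 3 were called (Rac2, Ncf4 and Cybc1), all higher in the IPF group. Over the 9 the median log2 fold change was 0.20, beside 0.0016 over all genes tested. All 3 called genes had every IPF lung above every sham lung, as 4.52% of all genes tested did. Nox3, Duox1, Duox2, Duoxa1 and Duoxa2 were below 0.1 FPKM on average and were not tested, and Nox3 was at 0 in all 10 lungs.

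Rac2, the hematopoietic Rac GTPase of the complex, was at 15.8, 12.7, 16.1, 16.7 and 16.2 FPKM in IPF replicates 1 to 5. In sham replicates 1 to 5 it was at 8.27, 10.6, 10.3, 10.3 and 11.1 FPKM. The groups did not overlap, and the log2 fold change of 0.61 (SE 0.10 and a limma adjusted p of 0.00422) was called in all 20 alternative fits.

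Ncf4, a cytosolic subunit that binds phosphoinositides, averaged 4.65 ± 0.507 FPKM in IPF and 2.82 ± 0.615 FPKM in sham lungs (SD over 5 lungs), with a log2 fold change of 0.72 (adjusted p in limma = 0.0152), and was also called in all 20 alternative fits. Cybc1, a chaperone that Cybb needs for its maturation, had a log2 fold change of 0.20 (adjusted p in limma = 0.0484), and passed 0.05 in 4 of the 20 alternative fits, in none of those that left out a lung. The organizing subunit Ncf1, named here after its values were seen, was at 6.75 to 9.92 FPKM in the IPF and 5.57 to 8.26 FPKM in the sham lungs and overlapped between the groups (log2 fold change 0.30, limma adjusted p = 0.196). Rac1, the ubiquitous Rac GTPase and the most abundant gene of the list, had a log2 fold change of -0.03 (adjusted p in limma = 0.873).

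**Figure D2:**
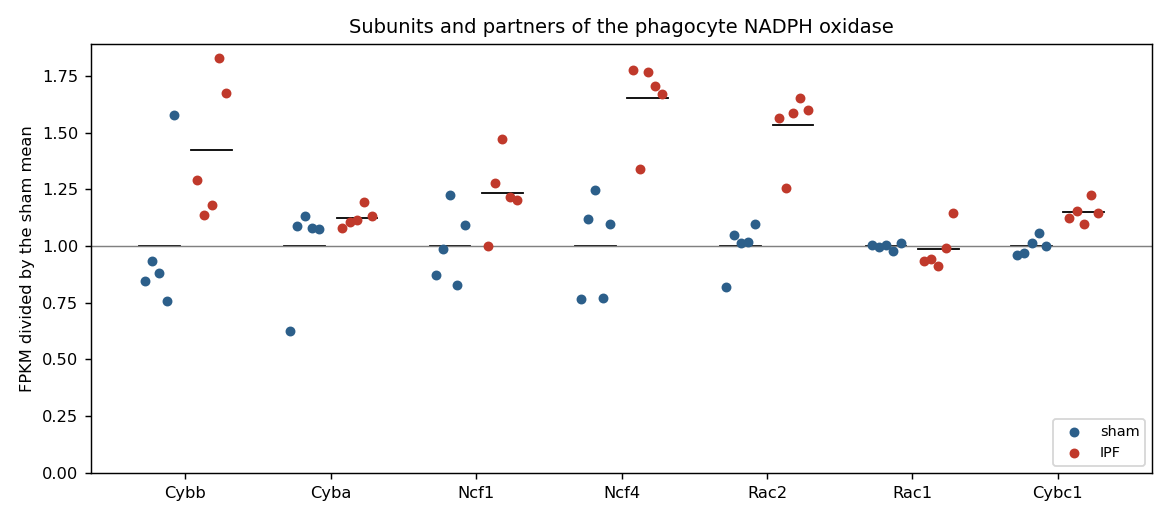
FPKM of each lung divided by the sham mean of the same gene (vertical axis, linear, from 0) for the membrane subunits, cytosolic subunits and partners of the phagocyte oxidase, with sham lungs in blue, IPF lungs in red and group means as lines. Ncf4, Rac2 and Cybc1 do not overlap between the groups, whereas Cybb, Cyba, Ncf1 and Rac1 do.

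Monocytes, neutrophils and macrophages carry this oxidase, and part of the monocyte markers rose as well. Of 9 monocyte markers, 5 were called higher (Plac8, Cx3cr1, Ly6c2, Treml4 and Ccr2) and 0 lower, with a median log2 fold change of 0.88, and at an unadjusted p under 0.05 limma gave 7 higher and 1 lower. Over all genes tested, limma called 3.71% higher and 2.14% lower, and gave 19.5% an unadjusted p under 0.05. Plac8 was at 25.7 FPKM in the IPF and 9.06 FPKM in the sham mean. The summed level of this list was 273 to 433 FPKM in the IPF and 340 to 378 FPKM in the sham lungs, and most of it was Ace, which endothelium also expresses. Ace was the 1 on the lower side, at -0.28 on the log2 scale (adjusted p in limma = 0.254). All 12 neutrophil markers had a positive log2 fold change with a median of 0.97. By limma 0 of them were called, also by voom, and 7 had an unadjusted p under 0.05. Their sum was 60.3 to 319.6 FPKM in the IPF lungs, highest in replicate 5, and 19.1 to 92.1 FPKM in the sham lungs, highest in replicate 5. That sham lung also had the highest Cybb of its group, but sham replicate 3 had a sum of 76.0 FPKM with Cybb at 7.89 FPKM. IPF replicate 4, the IPF lung with the highest Cybb (16.4 FPKM), had a sum of 74.3 FPKM. Of 13 macrophage markers 0 were called by limma or by voom and 4 had an unadjusted p under 0.05, with a median of 0.28 and sums of 4288 to 5845 against 3632 to 5791 FPKM. None of the markers of these 3 lists was at 0 throughout. In whole lung, more or fewer cells of a type and more or less RNA per cell cannot be told apart, and the part of these cells in the oxidase genes was not tested.

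The scavengers were ordered by level per length as Sod3, Cat, Sod1, Hmox1, Sod2 and Nqo1, in both groups. Sod3 (ENSMUSG00000072941, chromosome 5, 52363791 to 52371418), the dismutase secreted to the matrix of vessels and airways, was at 135.3 to 167.7 FPKM in the IPF and 135.0 to 156.3 FPKM in the sham lungs. Sod3 had a log2 fold change of 0.09 with a 95% interval of -0.07 to 0.25 (limma adjusted p = 0.565). Sod1 (ENSMUSG00000022982, chromosome 16, 90220754 to 90226329), the copper and zinc enzyme of the cytosol, was at 55.0 to 71.8 FPKM in the IPF lungs, at 61.2 to 69.6 FPKM in sham replicates 2 to 5 and at 43.1 FPKM in sham replicate 1. Its log2 fold change was 0.10 (95% interval -0.19 to 0.39, limma adjusted p = 0.729) and -0.02 without sham replicate 1. Its last 650 bases overlap Scaf4 on the opposite strand. Sod2 (ENSMUSG00000006818, chromosome 17, 13006846 to 13040063), the manganese enzyme of mitochondria, was at 8.45 to 9.59 FPKM in the IPF and 8.19 to 11.0 FPKM in the sham lungs (log2 fold change -0.10, 95% interval -0.27 to 0.08, limma adjusted p = 0.551). The groups overlapped for all 3 dismutases, and the upper ends of their intervals reached at most 0.39 on the log2 scale, for Sod1.

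Cat (ENSMUSG00000027187, chromosome 2, 103453849 to 103485160), the peroxisomal enzyme that splits hydrogen peroxide, was at 94.2, 95.9, 136.7, 92.5 and 107.5 FPKM in IPF replicates 1 to 5 and at 90.5 to 100.9 FPKM in the sham lungs. Only IPF replicates 3 and 5 lay above the sham range. Cat had a log2 fold change of 0.14 (SE 0.10 and a limma adjusted p of 0.488), and it was 0.04 without IPF replicate 3.

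Hmox1 (ENSMUSG00000005413, chromosome 8, 75093621 to 75100589), the inducible heme oxygenase, was at 17.0, 17.1, 22.1, 17.0 and 16.3 FPKM in IPF replicates 1 to 5. In sham replicates 1 to 5 it was at 13.7, 15.0, 14.4, 14.8 and 13.97 FPKM. It was the only 1 of the 10 genes whose groups did not overlap, the IPF lungs all being higher, as in 4.52% of all genes tested. Its log2 fold change was 0.30 (SE 0.08, 95% interval 0.13 to 0.48), and the limma adjusted p of 0.0520 was above the threshold. Without IPF replicate 3, the highest lung, the log2 fold change was 0.23 and the limma adjusted p 0.0323, and without IPF replicate 5 they were 0.34 and 0.0363, while the other 8 such fits stayed above 0.05, at up to 0.102. The constitutive Hmox2, outside the rule for named genes, had a log2 fold change of 0.10 (adjusted p in limma = 0.571).

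Nqo1 (ENSMUSG00000003849, chromosome 8, 107388225 to 107403206), a quinone reductase and a standard target of NRF2, was at 2.50, 2.63, 9.81, 2.26 and 2.51 FPKM in IPF replicates 1 to 5 and at 2.07, 3.09, 3.61, 4.33 and 3.46 FPKM in sham replicates 1 to 5. IPF replicate 3 was far above all other lungs, and the other 4 IPF lungs lay within the sham range. Nqo1 had a log2 fold change of 0.02 (SE 0.37 and a limma adjusted p of 0.987), and it was -0.37 without IPF replicate 3 (limma adjusted p = 0.289). The same lung was the highest of the 10 for Cat and Hmox1. Its markers of secretory airway cells summed to 27805 FPKM, against 3880 to 13523 FPKM in the other IPF lungs and 11796 to 23290 FPKM in the sham lungs, and its ciliated cell markers to 240.0 FPKM, against 138.7 to 205.97 FPKM in all others. Of the 7 secretory and 7 ciliated markers 0 were called by limma, and 0 had an unadjusted p under 0.05. The part of airway tissue in these values was not tested.

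**Figure D3:**
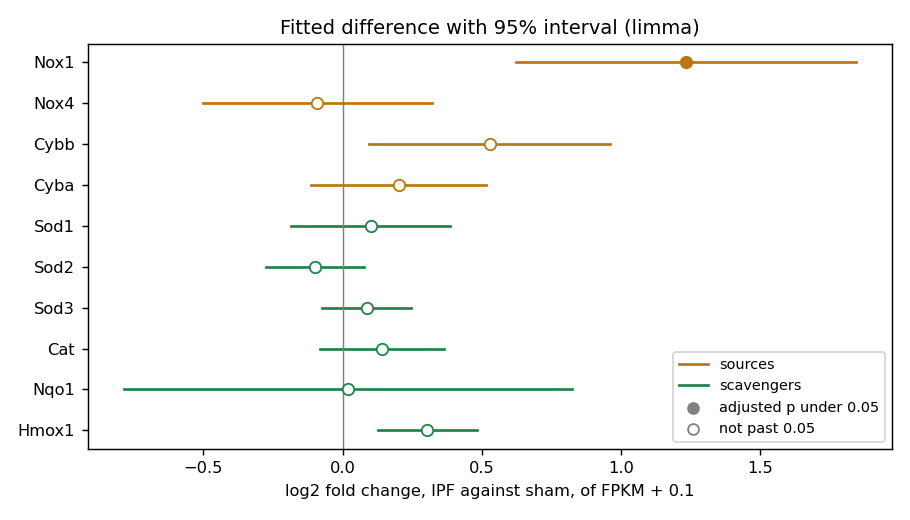
Fitted log2 fold change of FPKM + 0.1, IPF against sham (horizontal axis), with its unadjusted 95% interval from limma for the 10 genes, sources in orange and scavengers in green, filled where the adjusted p was under 0.05. Nox1 alone is filled, at 1.23, and the scavengers lie between -0.10 and 0.30.

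Sources and scavengers can be set side by side without a test, since their members were chosen by name and differ widely in level. The median log2 fold change was 0.36 for the 4 sources, of which 3 were positive, and 0.09 for the 6 scavengers, of which 5 were positive. The mean log2 level of the sources minus that of the scavengers was -1.60, -1.72, -2.13, -1.21 and -1.49 in IPF replicates 1 to 5. In sham replicates 1 to 5 it was -1.92, -2.15, -2.05, -2.29 and -1.62. The groups overlapped, with IPF replicate 3 among the sham lungs and sham replicate 5 among the IPF lungs. The difference between the group means was 0.38, and 0.12 when the sparsely read Nox1 was left out. In absolute level per length, Nox1, Nox4 and Cybb together had 20.4 to 35.6 FPKM in the IPF and 17.8 to 27.5 FPKM in the sham lungs, while the 3 dismutases had 217 to 239 and 186 to 232 FPKM.

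Beyond the 10 genes, 8 lists of oxidant and antioxidant genes held 121 genes, 113 of them tested. Of these, 13 were called (11.5%), 8 higher and 5 lower, beside 5.85% of all genes tested, 3.71% higher and 2.14% lower. The count was 7 without IPF replicates 2 or 4 and 8 without sham replicates 3 or 5. The median log2 fold change over the 113 was 0.07, beside 0.0016 over all genes tested.

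Among 12 other oxidant sources tested, 2 were called, both higher, while 5 had a positive and 7 a negative log2 fold change, with a median of -0.02. At an unadjusted p under 0.05 limma gave 2 higher and 2 lower, the latter being Xdh (-0.61) and Ptgs2 (-0.38), named here after their values were seen. Maoa and Maob, the monoamine oxidases of the outer mitochondrial membrane, which release hydrogen peroxide, rose by 0.41 and 0.30 on the log2 scale (adjusted p in limma = 0.0198 and 0.0356), with all IPF lungs above all sham lungs for both. When a lung was left out, Maob was called only without IPF replicates 1 or 5, and it was also lost with no filter on low values, with quantile normalization and with no variance trend. The call of Maoa was lost without IPF replicate 4 and without sham replicate 3. Pxdn, a matrix peroxidase and the most abundant gene of this list, had a log2 fold change of -0.06 (adjusted p in limma = 0.760).

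Of 17 genes of glutathione and its peroxidases, 1 was called. Glrx, a glutaredoxin that removes glutathione from proteins, rose from 3.96 to 5.34 FPKM in the group means (log2 fold change 0.43, limma adjusted p = 0.0345), a call lost without IPF replicates 2, 3 or 4, without sham replicate 5, with no filter on low values and with no variance trend. Gpx3, the secreted glutathione peroxidase and the most abundant of the list, was at 754 to 910 FPKM in the IPF and 556 to 735 FPKM in the sham lungs. Its groups did not overlap, but its log2 fold change of 0.40 had a limma adjusted p of 0.0501, and voom on the recovered reads called it. Of 20 peroxiredoxin and thioredoxin genes, 1 was called: Sesn2, a stress-induced sestrin, fell by 0.41 on the log2 scale (adjusted p in limma = 0.00883), with every IPF lung below every sham lung, as 2.77% of all genes tested had. Voom called 2 genes of this list, Sesn2 and Sesn3, the latter, named here after its values were seen, with a log2 fold change of 0.39 (adjusted p in limma = 0.0650). Prdx6, the most abundant peroxiredoxin, was at 150.7 to 245.2 FPKM in the IPF and 225.8 to 242.3 FPKM in the sham lungs (limma adjusted p = 0.244).

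The regulators of the NRF2 pathway gave 1 called gene of 12. Maff, a small MAF protein that pairs with NRF2 and BACH1 on DNA, was at 6.86 to 12.0 FPKM in the IPF and 15.2 to 19.3 FPKM in the sham lungs. It fell by 1.00 on the log2 scale (SE 0.14 and a limma adjusted p of 0.00307) and was called in all 20 alternative fits. Sqstm1, the most abundant of the list, which binds KEAP1, had a log2 fold change of -0.07 (adjusted p in limma = 0.577). Of 25 NRF2 target enzymes tested 0 were called by limma, 3 had an unadjusted p under 0.05 and 2 were called by voom (Ephx1 and Osgin1, named here after their values were seen). Of the 25, 14 had a positive and 11 a negative fold change, and their median was 0.04. Gstm1, the most abundant of them, was at 215 ± 49.6 FPKM in IPF and 185 ± 10.3 FPKM in sham lungs (SD over 5 lungs, log2 fold change 0.19, limma adjusted p = 0.483).

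Among 15 genes of heme and iron handling, 2 were called higher and 1 lower. Slc40a1, the iron exporter ferroportin, rose from 2.02 to 3.06 FPKM in the group means (log2 fold change 0.56, limma adjusted p = 0.0140) and was called in all 20 alternative fits. Cp, the ferroxidase ceruloplasmin, had a log2 fold change of 0.43 and a limma adjusted p of 0.0498, which was above 0.05 in 16 of 20 alternative fits and, of those that left out a lung, below it only without IPF replicate 1. Cd163, the hemoglobin scavenger receptor of macrophages, fell by 0.72 on the log2 scale (adjusted p in limma = 0.0201). Its call was lost without IPF replicate 2 and with same-numbered samples fitted as blocks (limma adjusted p = 0.0664). Fth1, ferritin heavy chain and the most abundant of the list, had a log2 fold change of 0.19 (adjusted p in limma = 0.511). Markers of red cells varied widely within both groups, with sums of 310.04 to 3266 FPKM in the IPF and 823 to 3221 FPKM in the sham lungs, and 0 of 7 were called by limma or had an unadjusted p under 0.05.

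Of 8 copper and metal genes tested, 2 were called, both lower. Atp7b, a copper-exporting ATPase, was at 4.86 to 11.1 FPKM in the IPF and 12.4 to 18.4 FPKM in the sham lungs (log2 fold change -1.01, SE 0.18 and a limma adjusted p of 0.00874), a call that held in all 20 alternative fits. Mt1, a metallothionein that binds zinc and copper, fell by 0.58 on the log2 scale (adjusted p in limma = 0.0369), and when a lung was left out it was called only without IPF replicate 3 or sham replicate 1, and its call was also lost with no filter on low values and with no variance trend. Atox1, the copper chaperone of the ATPases and the most abundant of the list, had a log2 fold change of 0.25 (adjusted p in limma = 0.476). Ccs, the chaperone that loads copper into Sod1, outside the rule for named genes, was at 22.9 and 22.5 FPKM in the group means.

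**Figure D4:**
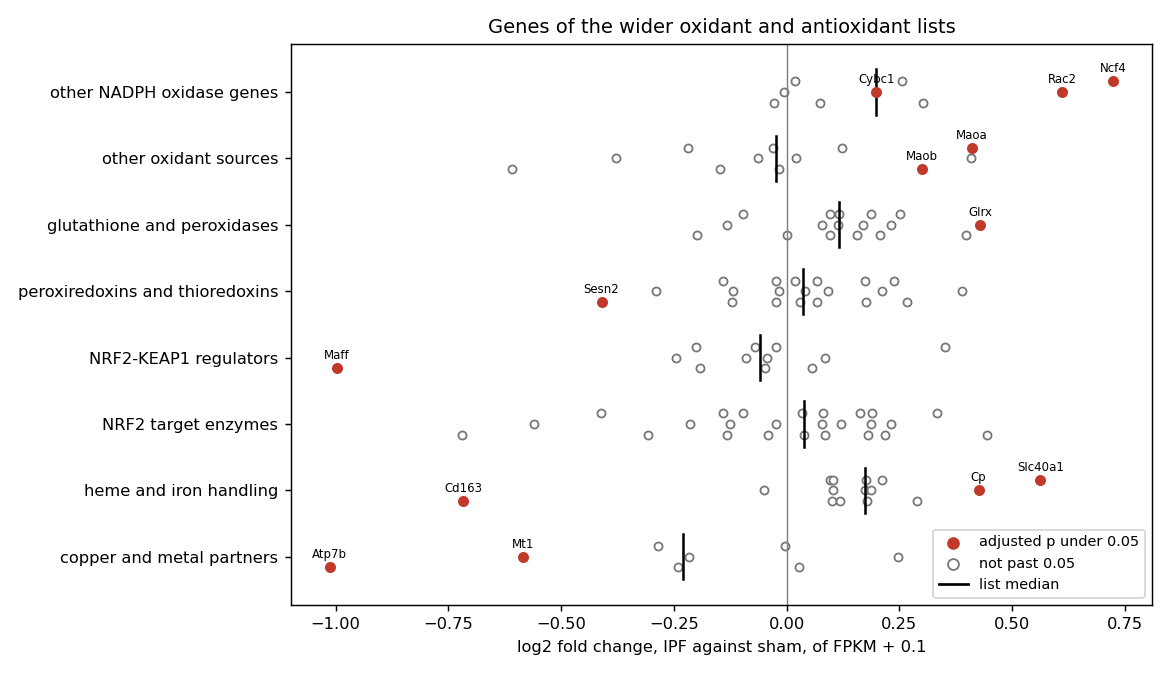
Log2 fold change of FPKM + 0.1, IPF against sham (horizontal axis), of each tested gene of the 8 lists (rows), with called genes filled and named and the list median as a bar. Called genes are 3 of 9 in the oxidase list and 2 of 12 oxidant sources, all higher. They are 1 of 12 NRF2 regulators and 2 of 8 copper genes, all lower.

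The genes most like each enzyme were sought across the 10 lungs after the group means had been removed, by Pearson's correlation, among protein-coding genes with a mean of at least 5 FPKM. Nox4 varied most like Add3, Vps33a and Ccny, at 0.96 to 0.97, and Cybb most like Cidec, Gpd2 and Vps35, at 0.96 each. Cyba varied most like Psmb10, Mrps24 and Sdhb, at 0.98 to 0.99. Sod1 varied most like 1810037I17Rik, Leprot and Rpp14, at 0.97 to 0.98, Sod2 most like Dcaf11, Emc6 and Klk8, at 0.92 to 0.99, and Sod3 most like Srm, Actb and Dact3, at 0.93 to 0.94. Cat varied most like Scnn1b, Fam183b and Pon1, at 0.94 to 0.96. Nqo1 varied most like Cbr1, Gsta4 and Nup210, at 0.96 each. Hmox1 varied most like Gsto1, Tspan1 and Pgd, at 0.96 to 0.98. Without the lung farthest from its group mean for the enzyme, these correlations were 0.81 to 0.98, with those of Cyba at 0.91 to 0.92 without sham replicate 1 and those of Nqo1 at 0.84 to 0.87 without IPF replicate 3. These are the highest of many correlations, so they describe these lungs only. Nox1, with a mean below 1 FPKM, was left out of this search.

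Markers of other lung cells, set beside the enzymes, gave few calls. Of 8 endothelial markers, 1 was called higher, Cldn5, 3 had an unadjusted p under 0.05, all higher, and 2 were called by voom (Tek and Cldn5). Their sum was 1168 to 1329 FPKM in the IPF and 1044 to 1083 FPKM in the sham lungs. Of 8 alveolar type 2 markers 0 were called by limma and 1 had an unadjusted p under 0.05, with sums of 17096 to 19329 FPKM against 13008 to 20574 FPKM. The 9 smooth muscle markers summed to 179 to 295 FPKM in the IPF, highest in replicate 3, and 198 to 240 FPKM in the sham lungs. Of the 5 adipocyte markers and 3 markers of other organs tested 0 were called by limma or had an unadjusted p under 0.05, and the kidney gene Umod was at 0 throughout.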

How the data were processed

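Lungs were frozen, RNA was extracted with Trizol, and libraries were made with the NEBNext Ultra kit per the labels (the paper names KAPA mRNA HyperPrep). The authors trimmed reads with Fastp, aligned them with HISAT2 and quantified genes with StringTie, and the table they deposited gives FPKM for 54532 genes. The submitters' processing notes also name Bowtie 0.12.2. The table gives positions on GRCm38, which the notes name beside mm10 and hg38, whereas the paper names GRCm39. The HISAT2 version and the strand setting are not given in the sources used here. Within a sample FPKM multiplied by gene length came in equal steps, which gave the reads (100% of values under 1000 reads were whole within 0.02 of a read). The depth these steps imply differed from the summed reads by -4.13 to 2.58%. Intervals cover the spread between lungs only, and the labels do not say that each sample is a separate mouse, though the paper counts samples per group and takes the lungs from animals set aside for sequencing. Were samples to share a mouse, p-values would measure only the spread between samples.

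Genes averaging 0.1 FPKM or more were fitted on log2(FPKM + 0.1) in limma 3.58.1 (R 4.3.3, trended variances, no covariates). DESeq2, which the study used, was not run. The deposited values are FPKM, and limma voom was run on the reads recovered from them. Tables were made in Python 3.11.15 with pandas 2.3.3. The fit and the read recovery were tested on simulated data. The 10 genes and all lists were chosen with earlier results of these data known. 1 gene of the oxidase list is not reported here and was left out of the list counts. Besides the 10 genes, each list's called genes (up to 6) and most abundant gene were named, and the 3 genes most like each enzyme. Alternatives were the pseudocount, filter, scaling, replicate block, trend, sample weights, voom on recovered reads, and leaving out each lung.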

Additional observations from a re-analysis of the deposited data

Results flagged for a closer look

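A lung was singled out where its gap to the nearest lung of its group, divided by the range of the group, was above 0.710, the critical value for 5 samples. Of 62 groups looked at (10 genes and 21 other named genes, IPF and sham), 9 held such a lung, where chance gives about 1 in 20 groups, or 3.1. Of the 20 groups of the 10 genes, 4 did. Nqo1 was at 9.81 FPKM in IPF replicate 3, with the next IPF lung at 2.63 FPKM. Hmox1 was at 22.1 FPKM in the same lung, with the next at 17.1 FPKM, and Mt1 was at 20.2 FPKM there, with the next at 13.4 FPKM. Cyba was at 42.9 FPKM in sham replicate 1, with the next sham lung at 73.6 FPKM, and Mt1 was at 17.1 FPKM in that lung, with the next at 20.6 FPKM. Cybb was at 14.1 FPKM in sham replicate 5, with the next at 8.39 FPKM. IPF replicate 2 was the lowest of its group for Rac2 (12.7 FPKM, next 15.8 FPKM), Ncf4 (3.77 FPKM, next 4.70 FPKM) and Sqstm1 (96.0 FPKM, next 106.001 FPKM).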

How the results depend on the processing

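The count of called genes over the whole table was 1196, and 775 to 1620 when each lung was left out, lowest without IPF replicate 4. The count past both limits of the study was 233, and 74 with a pseudocount of 1 and 154 with a mean FPKM of at least 1. Of the 10 enzymes 1 was called, and 0 with the replicate block, 2 with array weights and 0 to 2 when a lung was left out. Nox1 had a log2 fold change of 1.23 with the replicate block (limma adjusted p = 0.0879) and 1.11 to 1.41 when a lung was left out. With a mean FPKM of at least 1 it was not tested, and Hmox1 was the enzyme called. Nox1 was called under the other 8 alternatives that kept all lungs. Hmox1 was called with a mean FPKM of at least 1 (log2 fold change 0.30, limma adjusted p = 0.0397) and with array weights (0.27, limma adjusted p = 0.0349), and its log2 fold change was 0.23 to 0.34 when a lung was left out. That of Cybb was 0.43 to 0.70, that of Nox4 -0.276 to 0.0085, that of Sod1 -0.019 to 0.158 and that of Nqo1 -0.37 to 0.15. With array weights Sod1 was at -0.0294 and Nqo1 at -0.16. The 13 called genes of the 8 lists became 8 with no filter on low values, 20 with array weights and 7 to 16 when a lung was left out. The cause of these changes was not tested, beyond the fewer samples or other genes tested in each fit. Cyba, Sod2, Sod3 and Cat kept their direction and stayed uncalled in all 20 alternatives. Deviations of same-numbered samples from their group means correlated at 0.166, 0.092, 0.091, -0.042 and 0.099 for numbers 1 to 5. The correlation was over 0.1 in 1 of 5 pairs, and 3 of 5 IPF samples were closest to their own number. Whether same-numbered samples share more than a number cannot be told from these values. The replicate block gave 1045 called genes, without Cd163 (limma adjusted p = 0.0664), Cybc1 (0.0723) and Cp (0.0970). Few reads limit Nox1, the other 9 genes having at least 53 reads in each lung.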
